A study of Mus musculus with 16 samples.

Results

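The adhesion genes of the immunoglobulin superfamily followed here in primary mouse astrocytes were Icam1, Icam2, Vcam1, Alcam, Jam2, Jam3, Ncam1, L1cam and Nrcam. They were chosen by name, and 8 of the 9 had a row in the deposited log2 CPM table (log2 of counts-per-million) of 16707 genes. Icam2 had no row and had 0 reads in all 16 libraries over its 6 annotated transcripts, which allows up to 3 reads in a library, or 0.110 CPM in the shallowest one (counting error only). Astrocytes were cultured from brains of pups at postnatal day 6, after magnetic selection with an antibody against ACSA-2, in serum-free medium with heparin-binding EGF. That age is from the sample labels and the study's methods, while its results text describes cultures from newborn pups. They came from C57BL6J mice (WT) or from Nlrx1-/- mice, a knockout of the gene for the innate immune receptor NLRX1. Wells received vehicle (water) or LPS at 500 ng/mL together with IFNγ at 10 ng/mL for 24 h, so both agents were always given together and neither was tested alone. Each genotype had 4 litters, and each litter gave 1 vehicle and 1 stimulated library, for 4 groups of 4 libraries. A litter had 1 genotype, so genotypes are compared over 4 litters against 4.

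Immunoglobulin-type adhesion molecules are cell surface proteins whose extracellular part is built from immunoglobulin domains. Icam1 and Vcam1 are ligands of leukocyte integrins: lymphocyte and myeloid cells hold on to ICAM1 through integrins with the beta chain Itgb2, and to VCAM1 through the integrin of Itga4 and Itgb1. Both genes are textbook targets of inflammatory cytokines in endothelium and are also made by reactive astrocytes. Alcam binds CD6 on T cells and also itself, and Jam2 and Jam3 are junctional molecules that bind each other, themselves and leukocyte integrins. Ncam1, L1cam and Nrcam mediate adhesion among neurons and glia, and L1cam and Nrcam are anchored to the cytoskeleton by ankyrins.

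Sequencing depth ranged from 27259420 to 43752903 assigned reads per library. Nlrx1 itself was at 4.08 to 4.44 log2 CPM in the 8 WT libraries and at 1.09 to 2.96 in the 8 Nlrx1-/- libraries. All 10 astrocyte markers examined were measured, and their summed TPM (transcripts-per-million, a length-corrected level) was 3428 to 6867 in WT and 2692 to 4999 in Nlrx1-/- libraries. Oligodendrocyte-lineage markers were also abundant, led by Olig1, with a summed TPM of 1698 to 3374. Of 13 microglial markers only Cd68 and P2ry12 had a row in the table, and the whole list summed to 2.18 to 7.93 TPM. Of 10 endothelial markers 4 had a row (Kdr, Flt1, Egfl7 and Ly6c1), while Pecam1, Cldn5, Cdh5, Tek, Emcn and Tie1 had none. The list had a summed TPM of 2.34 to 5.86 in vehicle and 20.8 to 41.0 in stimulated libraries. Kdr, Flt1 and Egfl7 had means of 0.92, 0.57 and 1.69 TPM, with up to 423, 145 and 61 reads in a library. Ly6c1, at 0 in vehicle and at 17.0 to 37.7 TPM after stimulation, made up most of the stimulated sum. Fewer cells of a type and less RNA per cell cannot be told apart in such bulk libraries, and counting did not separate the strands.

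The promoter of Icam1 (gene at chr9:20926672-20940113, GRCm39, GENCODE annotation) is shown because this gene had the largest response of the 8. The sequence is from RefSeq and runs from 250 bases before to 50 bases after the start annotated there. It matched GRCm39 exactly once, at chr9:20926986-20927285 on the plus strand. This window lies inside the gene as GENCODE places it, because the GENCODE start is further upstream. Capitals mark every match, on either strand, to 4 short motifs: GGNNNTTCC (a form bound by NF-κB), TTCNNNGAA (the gamma-activated site), the core of the interferon-stimulated response element and TGANTCA (bound by AP-1).

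Icam1: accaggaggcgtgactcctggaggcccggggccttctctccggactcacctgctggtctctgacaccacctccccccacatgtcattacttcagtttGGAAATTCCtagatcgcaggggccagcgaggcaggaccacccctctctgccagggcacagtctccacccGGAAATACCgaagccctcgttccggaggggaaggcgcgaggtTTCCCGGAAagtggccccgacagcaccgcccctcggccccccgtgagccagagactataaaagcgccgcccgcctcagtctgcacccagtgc

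The window held 3 matches, which did not overlap. They were GGAAATTCC at 153 bases and GGAAATACC at 84 bases before the start, both of the NF-κB form, and TTCCCGGAA at 42 bases before it, of the gamma-activated form. Among 32851 mouse promoters of the same length, 18.5% held the NF-κB form, 8.30% the gamma-activated site, 3.44% the interferon-response core and 7.81% the AP-1 site. Promoters of Alcam, L1cam and Nrcam, the other members for which a sequence was at hand, held none of the 4 motifs. No sequence was at hand for Vcam1, Icam2, Jam2, Jam3 or Ncam1, and any link of the motifs to the responses was not tested. The Nrcam promoter is given because this gene also rose, with no capitals since there was no match. It matched GRCm39 once, at chr12:44375418-44375717 on the plus strand, also inside the GENCODE gene (chr12:44375287-44651976). It was 74.0% G and C, against 64.7% for Icam1.

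Nrcam: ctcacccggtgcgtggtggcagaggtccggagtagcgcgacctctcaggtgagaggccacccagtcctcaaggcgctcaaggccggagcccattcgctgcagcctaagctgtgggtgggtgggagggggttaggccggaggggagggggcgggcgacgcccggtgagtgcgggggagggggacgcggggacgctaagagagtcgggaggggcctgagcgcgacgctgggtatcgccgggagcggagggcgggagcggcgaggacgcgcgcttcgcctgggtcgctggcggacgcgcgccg

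In unstimulated WT astrocytes Jam2, Jam3, Ncam1 and Nrcam were far more abundant than Icam1, and L1cam was less abundant. Levels between genes are compared in TPM, as means over 4 libraries. Jam2 was highest at 273 ± 9.77 TPM (SD, n = 4), followed by Ncam1 at 151 ± 7.75 TPM. Jam3 at 94.3 ± 6.22, Vcam1 at 88.6 ± 9.54 and Nrcam at 78.5 ± 3.53 TPM came next, and in this run each gene overlapped with its neighbour across the libraries. Alcam lay below them at 43.6 ± 1.35 TPM and Icam1 at 5.80 ± 1.44 TPM. L1cam was lowest at 0.443 ± 0.0773 TPM. The order in Nlrx1-/- vehicle libraries differed only in that Nrcam (68.2 ± 6.13 TPM) stood above Vcam1 (56.9 ± 17.7 TPM), and these 2 overlapped.

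After LPS + IFNγ the leukocyte-binding pair stood on top in both genotypes. Vcam1 reached 357 ± 58.5 TPM in WT and 323 ± 52.0 TPM in Nlrx1-/- astrocytes, and Icam1 reached 189 ± 19.6 and 227 ± 41.6 TPM. The ranges of Vcam1 and Icam1 did not overlap in WT, but did in Nlrx1-/- libraries. Jam2 followed at 142 ± 4.38 TPM in WT, next to Jam3 at 133 ± 6.37 TPM, with which it overlapped. Ncam1 (101 ± 9.15 TPM) and Nrcam (96.1 ± 14.6 TPM) also overlapped in WT, ahead of Alcam at 31.4 ± 4.58 and L1cam at 0.196 ± 0.120 TPM. TPM is a sum over transcripts paired with a symbol, and for Nrcam these held up to 0.41 log2 units less than the gene table, so its TPM may be too low, while every other member stayed within 0.08.

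**Figure D1:**
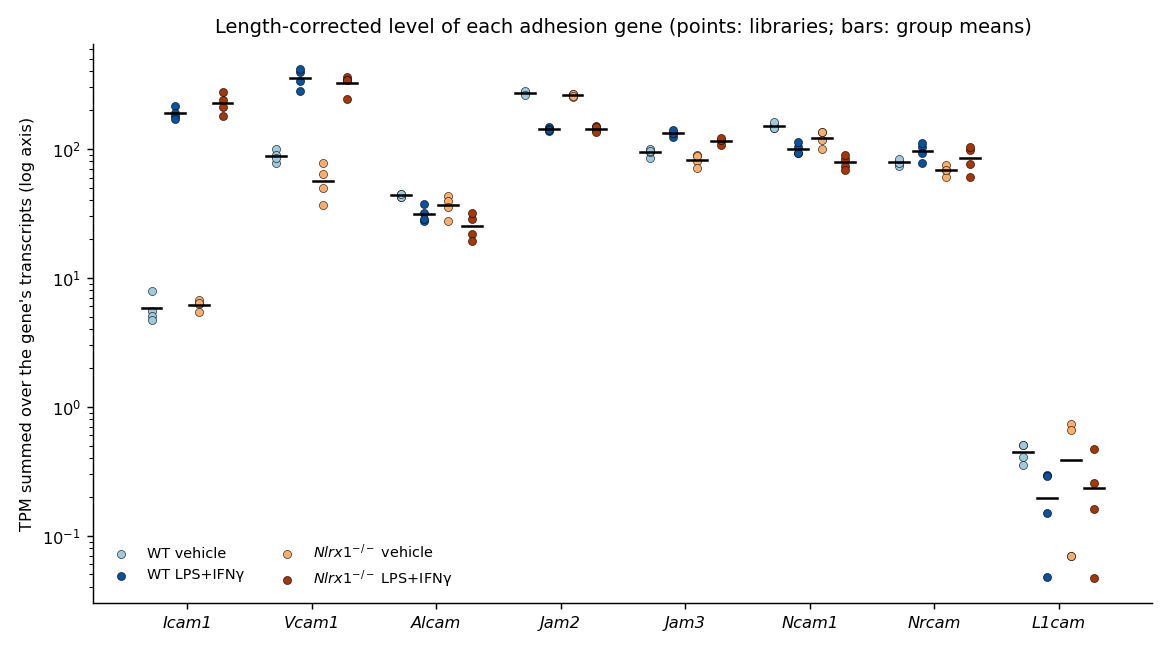
TPM on a log axis for the 8 members, with 1 point per library and a bar at the mean of each group of 4. The mean of Icam1 goes from 5.80 to 189 TPM in WT, whereas Jam2 and Ncam1 start highest and come down. Icam2, at 0 in all libraries, is not drawn.

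The proportions between pairs of members changed with stimulation. Vcam1 held 9.85, 18.2, 17.9 and 18.1 times the TPM of Icam1 in the WT vehicle libraries of litters 1 to 4, and 1.32, 2.05, 1.89 and 2.44 times after stimulation. Vcam1 had 0.530 to 0.661 times the TPM of Ncam1 in WT vehicle libraries and 3.05 to 3.77 times after LPS + IFNγ. In Nlrx1-/- libraries that ratio went from 0.363 to 0.571 up to 2.94 to 4.97. Jam2 to Jam3 went from 2.69 to 3.16 in WT vehicle to 0.996 to 1.18 in WT stimulated libraries. None of these ranges overlapped between vehicle and stimulated libraries of a genotype.

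The response to LPS + IFNγ was tested within litters, as stimulated minus vehicle log2 CPM, with limma over all 16707 genes. The fit takes 1 spread per gene from both genotypes, so the SE of a gene is the same in each. Litters could still be spread unlike that, with SDs of the response of 0.04 in WT and 0.12 in Nlrx1-/- for Jam3, and 0.04 and 0.15 for Nrcam. In WT astrocytes 4 of the 8 members rose (Icam1, Vcam1, Jam3 and Nrcam) and 3 fell (Jam2, Ncam1 and Alcam), where 24.9% of all genes rose and 21.9% fell. In Nlrx1-/- astrocytes the same 4 rose and the same 3 fell, against 26.6% and 25.5% of all genes. L1cam was called in neither. The median response of the 8 members was 0.22 in WT and 0.19 in Nlrx1-/-, beside -0.02 over all genes in each genotype, with 4 members above 0 and 4 below. Within a litter, the median of Icam1 and Vcam1 was 3.50 to 3.91 in WT and 3.63 to 4.53 in Nlrx1-/-, while the median of Ncam1, L1cam and Nrcam was -0.45 to -0.28 in WT and -0.46 to 0.62 in Nlrx1-/-. The latter does not describe a class that moved together, since Nrcam rose and Ncam1 fell in every litter. It was the value of L1cam, which rested on 4 to 71 reads, in WT litter 4 and Nlrx1-/- litters 1 and 4. The 0.62 was the Nrcam value of Nlrx1-/- litter 2.

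Icam1, the endothelial and glial ligand of the Itgb2 integrins, had the largest change. Its vehicle levels in WT litters 1 to 4 were 3.21, 2.74, 2.58 and 2.51 log2 CPM, and the stimulated levels were 8.16, 8.09, 7.96 and 7.86. In Nlrx1-/- litters 1 to 4 they were 2.72, 3.10, 2.95 and 2.99 in vehicle and 8.18, 8.66, 7.93 and 8.42 after stimulation. Every stimulated library stood more than 4 log2 units above every vehicle library. The response was 5.26 ± 0.10 (limma estimate ± SE) in WT, a 38.2-fold rise (95% interval 33.0 to 44.3), with an adjusted p of 9.88e-13. It was 5.36 ± 0.10 in Nlrx1-/-, a 41.0-fold rise (35.4 to 47.5), with an adjusted p of 8.14e-13.

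Vcam1, the ligand of the Itga4 integrins, was already well expressed without stimulation and rose less. WT vehicle libraries of litters 1 to 4 had 6.82, 7.23, 7.05 and 6.99 log2 CPM and the stimulated ones 8.88, 9.44, 9.20 and 9.46. Nlrx1-/- litters 1 to 4 had 6.60, 5.85, 6.89 and 6.26 in vehicle and 8.71, 9.34, 9.17 and 9.26 after stimulation. Vehicle and stimulated libraries did not overlap in either genotype, and the vehicle libraries of Nlrx1-/- litters were more spread out (SD 0.45) than those of WT (SD 0.17). The response was 2.22 ± 0.17 in WT (4.66-fold, 95% interval 3.59 to 6.06, adjusted p = 8.15e-07) and 2.72 ± 0.17 in Nlrx1-/- (6.60-fold, 5.08 to 8.57, adjusted p = 1.20e-07). Both intervals use the spread shared by the genotypes, while the SD of the response over litters was 0.18 in WT and 0.64 in Nlrx1-/-. Nlrx1-/- litters 2 and 4, which had the lowest vehicle levels, had the largest responses of all 8 litters, at 3.50 and 2.997, while the other 6 lay between 2.06 and 2.47. The stimulated levels of these 2 litters, 9.34 and 9.26, lay within the range of the other 6. The response is stimulated minus vehicle, so a lower vehicle level and a larger rise cannot be told apart here, and the cause was not tested.

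Among the molecules shared by leukocytes and other cells, Jam2 and Jam3 moved in opposite directions. Jam2 had 9.13, 9.20, 9.22 and 9.11 log2 CPM in WT vehicle and 8.45, 8.49, 8.42 and 8.41 in WT stimulated libraries. In Nlrx1-/- astrocytes it had 9.10, 9.23, 9.18 and 9.14 in vehicle and 8.51, 8.51, 8.49 and 8.43 after stimulation. The SDs of its 4 groups were 0.04 to 0.06, and no vehicle library came near a stimulated one. Jam2 fell by 0.72 ± 0.04 on the log2 scale in WT (39.4% lower, adjusted p = 7.03e-08) and by 0.68 ± 0.04 in Nlrx1-/- (37.5% lower, adjusted p = 1.17e-07).

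Jam3, the binding partner of Jam2, rose by a similar amount. Its WT levels were 6.09, 6.28, 6.33 and 6.31 log2 CPM in vehicle and 6.84, 7.03, 7.001 and 7.05 after stimulation. Those of Nlrx1-/- litters were 6.09, 5.95, 6.24 and 6.22 in vehicle and 6.76, 6.78, 6.78 and 6.88 after stimulation, so vehicle and stimulated libraries were apart in both genotypes. The response was 0.73 ± 0.05 in WT (1.66-fold, adjusted p = 4.66e-07) and 0.67 ± 0.05 in Nlrx1-/- (1.59-fold, adjusted p = 8.30e-07).

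Alcam, the ligand of CD6, fell slightly. In WT litters 1 to 4 it went from 6.51, 6.47, 6.45 and 6.55 log2 CPM to 6.00, 6.31, 6.12 and 6.49, and in Nlrx1-/- litters from 6.52, 5.93, 6.40 and 6.26 to 6.09, 5.80, 6.25 and 5.58. It was lower after stimulation in 8 of 8 litters, but vehicle and stimulated libraries overlapped in both genotypes. The fall was 0.26 ± 0.09 in WT (adjusted p = 0.0358) and 0.35 ± 0.09 in Nlrx1-/- (adjusted p = 0.00794, both limma). The WT call was lost without litter 1, 2 or 3 of WT (adjusted p = 0.182, 0.0605 and 0.121), and both calls were lost without the replicate block (adjusted p = 0.165 in WT and 0.0609 in Nlrx1-/-).

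The neural members also split. Ncam1, the neural cell adhesion molecule that carries polysialic acid, went from 8.58, 8.69, 8.60 and 8.77 log2 CPM to 8.13, 8.39, 8.21 and 8.44 in WT litters 1 to 4. In Nlrx1-/- litters it went from 8.53, 8.17, 8.56 and 8.37 to 8.02, 7.91, 8.11 and 7.80. It was lower in every stimulated library than in any vehicle library of its genotype. The fall was 0.37 ± 0.05 in WT (22.5% lower, adjusted p = 1.45e-04) and 0.44 ± 0.05 in Nlrx1-/- (26.4% lower, adjusted p = 2.75e-05).

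Nrcam, an ankyrin-bound molecule of the L1 family, rose in the same cultures. Its WT levels went from 8.02, 8.15, 8.11 and 8.22 to 8.69, 8.90, 8.83 and 8.89 log2 CPM. The Nlrx1-/- levels went from 7.98, 7.84, 8.11 and 8.02 to 8.64, 8.46, 8.73 and 8.36. Vehicle and stimulated libraries were apart in both genotypes, though the stimulated level of Nlrx1-/- litter 4 rose by only 0.34. The response was 0.70 ± 0.05 in WT (1.62-fold, adjusted p = 8.15e-07) and 0.56 ± 0.05 in Nlrx1-/- (1.47-fold, adjusted p = 4.72e-06). Its size depended on the processing, from 0.45 to 0.71 in WT and from 0.40 to 0.63 in Nlrx1-/- over 15 alternatives. The leading transcript, NM_001146031.1, rose by 0.39 in WT and 0.28 in Nlrx1-/- on the log2(TPM + 0.5) scale. For XM_006515968.4 the values were -0.05 and -0.08.

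L1cam, the neural molecule that gave the L1 family its name, rested on 4 to 71 reads per library, and no change was called in either genotype. WT litters 1 to 4 had 0.42, -0.05, 0.43 and 0.14 log2 CPM in vehicle and -0.13, -0.96, -2.32 and -0.14 after stimulation. In Nlrx1-/- vehicle libraries litters 1 and 3 had 0.99 and 0.84, and litters 2 and 4 had -2.02 and -2.04, from 71, 64, 7 and 8 reads in that order. The stimulated libraries of these litters had 0.53, -0.84, -0.32 and -2.30, with litter 1 again the highest and litter 4 the lowest. The response was -1.12 ± 0.46 in WT (adjusted p = 0.0656) and -0.17 ± 0.46 in Nlrx1-/- (adjusted p = 0.780, both limma). The WT fall was called on log2(CPM + 1) values (adjusted p = 0.0479) and without Nlrx1-/- litter 2 (0.0428), while without WT litter 3 it was -0.58.

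**Figure D2:**
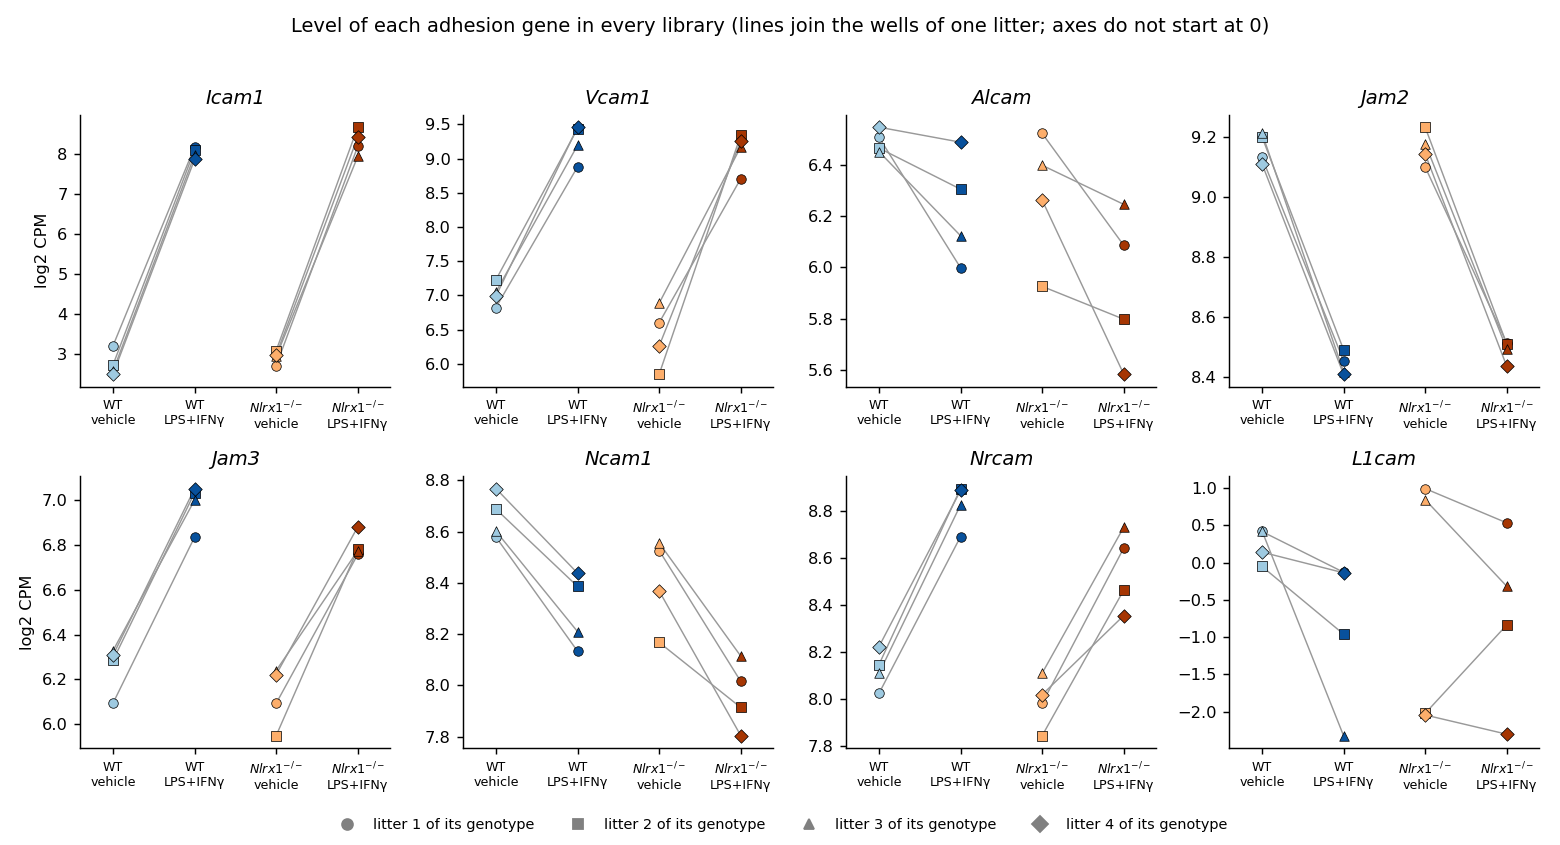
Log2 CPM of each member in all 16 libraries, in panels with their own axes that do not start at 0. Lines join the vehicle and stimulated wells of a litter, and marker shape gives the litter number within its genotype. The lines of Icam1, Vcam1, Jam3 and Nrcam all go up and those of Jam2, Ncam1 and Alcam all go down, while those of L1cam cross.

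Counted without a model, 7 of the 8 members had WT vehicle and WT stimulated libraries that did not overlap (all but Alcam), as had 37.8% of all genes. Litters ranked alike for several members. Among the 4 Nlrx1-/- vehicle libraries, that of litter 2 was the lowest for 5 of the 8 members (Alcam, Jam3, Ncam1, Nrcam and Vcam1) and the highest for Icam1 and Jam2. That of litter 3 was the highest for 4 members (Jam3, Ncam1, Nrcam and Vcam1). The summed TPM of the astrocyte markers was 4185, 2980, 4999 and 3435 in these libraries of litters 1 to 4, with litters 2 and 4 lowest. Its part in the members' levels was not tested.

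Whether the response itself differed between genotypes was tested as the Nlrx1-/- response minus the WT response. No member passed, and neither did any other gene of the table (0% of 16707 genes, with 2786 at an unadjusted p under 0.05 and a lowest adjusted p of 0.164 by limma, against 362 genes called by DESeq2, and 822 by limma without Nlrx1-/- litter 3). For Icam1 the difference was 0.10 (95% interval -0.20 to 0.40) and for Jam2 it was 0.05 (-0.09 to 0.18). Vcam1 had the widest gap of the well-expressed members, 0.50 (-0.03 to 1.03, adjusted p = 0.328). That interval leaves room for a response up to 2.05-fold larger in Nlrx1-/- astrocytes. The differences were -0.14 for Nrcam (-0.31 to 0.03), -0.08 for Ncam1 (-0.24 to 0.09), -0.05 for Jam3 (-0.22 to 0.11) and -0.09 for Alcam (-0.37 to 0.20). For L1cam the interval of -0.48 to 2.37 was too wide to place the difference on either side of 0.

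**Figure D3:**
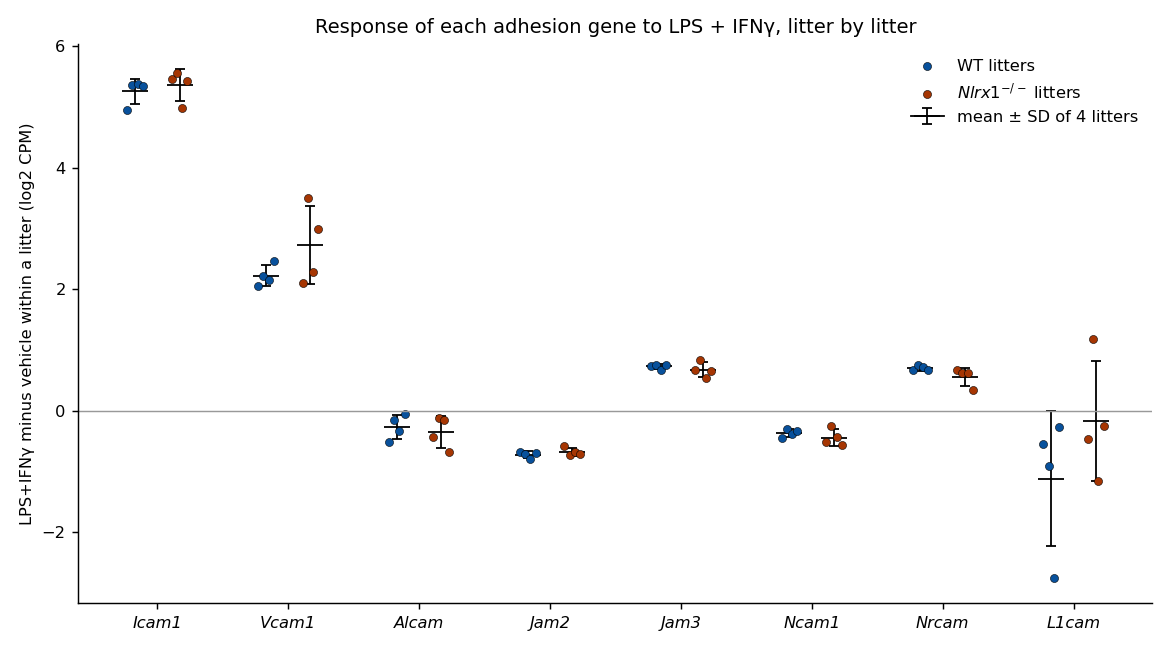
Stimulated minus vehicle log2 CPM within each litter (points), with mean ± SD of the 4 litters of a genotype. WT and Nlrx1-/- litters lie over each other for Icam1, Jam2, Jam3, Ncam1 and Alcam, and 2 Nlrx1-/- litters stand above all others for Vcam1, at 2.997 and 3.50.

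Levels were then compared between genotypes within a treatment. In vehicle no member was called, where 0.00599% of all genes were, which is 1 gene, Nlrx1 itself (3532 genes had an unadjusted p under 0.05, and DESeq2 called 765). Vcam1 was 0.62 ± 0.19 lower on the log2 scale in Nlrx1-/- astrocytes (35.2% lower, 95% interval of the log2 difference -1.03 to -0.22), with an unadjusted p of 0.00504 and an adjusted p of 0.114 by limma. Its highest Nlrx1-/- vehicle library (6.89) was just above the lowest WT one (6.82), and without Nlrx1-/- litter 3 the difference was -0.79 with an adjusted p of 0.0208. DESeq2 also called it, with an adjusted p of 0.0456. Ncam1 was the only member whose vehicle libraries did not overlap between genotypes, where 9.45% of all genes did not, and its difference was -0.25 ± 0.09 (adjusted p = 0.154). The intervals for Icam1 (-0.15 to 0.51) and Jam2 (-0.11 to 0.11) included 0.

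In stimulated astrocytes Ncam1 and Nrcam were called lower in Nlrx1-/-, 2 of 8 members, where 4.41% of all genes were called lower. No member was called higher. Ncam1 was 0.33 ± 0.09 lower on the log2 scale (20.4% lower, 95% interval -0.53 to -0.13, adjusted p = 0.0442). It was again the only member whose libraries did not overlap between genotypes, where 13.3% of all genes did not, with a highest Nlrx1-/- level of 8.11 and a lowest WT level of 8.13. Ncam1 (chr9:49413436-49710357) lies on the chromosome of the targeted gene Nlrx1 (chr9:44164011-44179896), as do Icam1 and Jam3. Any part of this position in the difference was not tested. Nrcam was 0.28 ± 0.08 lower (17.4% lower, -0.45 to -0.10, adjusted p = 0.0495), and its libraries overlapped. Both calls lay close to the threshold. Each was lost without any one of 6 litters (WT 2, 3 or 4 and Nlrx1-/- 1, 2 or 4), with adjusted p up to 0.156 for Ncam1 and 0.175 for Nrcam, while edgeR gave 0.0506 and 0.392. The fit took its spread from all 16 libraries, and in the 8 stimulated libraries alone the adjusted p was 0.0726 for Ncam1 and 0.0964 for Nrcam.

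Cell type markers also differed between the stimulated genotypes. Of 10 astrocyte markers 5 were called lower and none higher in stimulated Nlrx1-/- astrocytes, where 4.41% of all genes were called lower. The median difference of these markers was -0.79, beside -0.00335 over all genes. Their summed TPM was 3428 to 5044 in the WT and 2692 to 3873 in the Nlrx1-/- stimulated libraries. Oligodendrocyte-lineage markers had a median of -0.83 (2 of 10 called lower) and ependymal markers one of -0.79 (2 of 5 called lower). Medians of the neuronal, mural, endothelial, fibroblast and microglial lists were -0.05, -0.18, -0.13, 0.10 and 0.43, with no marker called. In the 8 stimulated libraries alone, or without WT litter 2, 3 or 4, only 1 gene of the whole table was called. At most 1 of the marker calls could therefore hold in each of those fits. The part of any of these markers in the lower Ncam1 and Nrcam was not tested. For Icam1 the stimulated difference was 0.28 (-0.05 to 0.61, adjusted p = 0.243) and for Vcam1 -0.12 (-0.53 to 0.28, adjusted p = 0.706). For Jam2, 0.05 (-0.06 to 0.15) was the narrowest interval of any member.

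**Figure D4:**
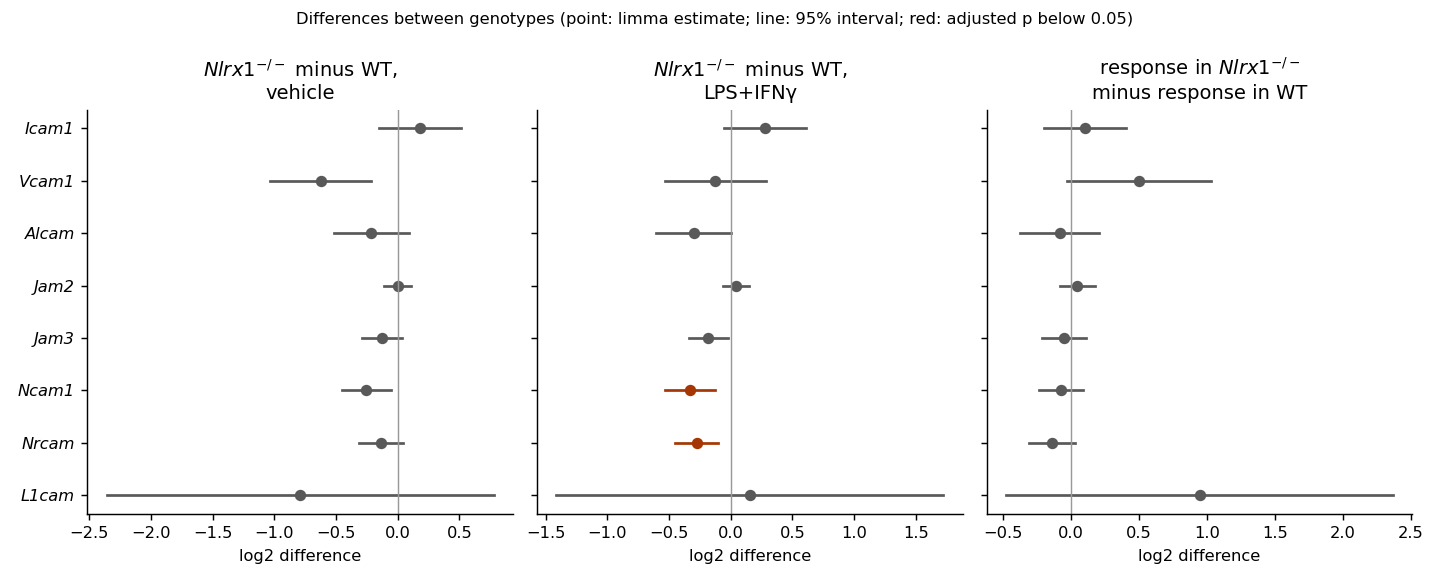
Limma estimates (points) and 95% intervals (lines) on the log2 scale for the 8 members: Nlrx1-/- minus WT in vehicle, the same after LPS + IFNγ, and the difference of the responses. The axes of the 3 panels differ, and the 2 red rows, Ncam1 at -0.33 and Nrcam at -0.28 after stimulation, are those with an adjusted p below 0.05.

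Transcripts within a gene did not all move alike. Icam1 and Vcam1 have 1 annotated RefSeq transcript each, Alcam and Jam2 have 2, Nrcam 27 and Ncam1 28, and 24 transcripts of all members exceeded a mean of 0.5 TPM. In WT 11 of these 24 were called in the response (4 higher, 7 lower), against 18.3% of 35670 transcripts tested, and in Nlrx1-/- 12 (5 higher, 7 lower), against 20.0%. Reads shared by transcripts of a gene are split by estimation, so single shares carry an error beyond the spread of libraries.

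For Jam2, the shorter transcript XM_006523075.5 was estimated at 14.1, 8.45, 15.1 and 15.4% of the gene's TPM in WT vehicle libraries of litters 1 to 4, and at 4.20, 0, 0.523 and 0% after stimulation. In Nlrx1-/- litters its share went from 14.5, 10.3, 18.0 and 4.59% to 4.30, 3.70, 9.21 and 0%. It was lower in 8 of 8 litters, and its level fell by 4.90 ± 0.62 on the log2(TPM + 0.5) scale in WT (adjusted p = 7.57e-04) while in Nlrx1-/- it fell by 2.77 ± 0.62 (adjusted p = 0.0128). The main transcript, NM_023844.5, fell by 0.75 and 0.74 in the 2 genotypes. For Alcam, the share of NM_001331110.1 went from 10.1, 5.64, 3.01 and 10.1% to 1.87, 2.33, 0.368 and 1.35% in WT, and its level fell by 1.85 ± 0.40 (adjusted p = 0.0130). In Nlrx1-/- libraries the share was 3.32 to 12.2% in vehicle and 3.34 to 8.19% after stimulation, and the difference of levels, -0.65 ± 0.40, was not called (adjusted p = 0.310).

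For Ncam1, the leading transcript NM_010875.3 held 51.2, 56.9, 47.5 and 59.3% of the gene's TPM in WT vehicle libraries and 41.8, 42.5, 41.5 and 45.8% after stimulation, without overlap. In Nlrx1-/- libraries it held 42.2 to 51.5% in vehicle and 39.7 to 52.8% after stimulation. Its level fell by 0.90 on the log2(TPM + 0.5) scale in WT and by 0.59 in Nlrx1-/-. A minor transcript, XM_011242413.3, was at 0 TPM in all 4 WT vehicle libraries and at 0 to 0.693 TPM in WT stimulated ones. In Nlrx1-/- libraries it was at 3.24, 0.801, 0 and 0 TPM in vehicle and at 3.88, 9.61, 7.48 and 2.69 TPM after stimulation. The rise in Nlrx1-/- was called (2.46 ± 0.57, adjusted p = 0.0150), and the difference between stimulated genotypes (2.96 ± 0.58) and between responses (1.89 ± 0.80) were not (adjusted p = 0.125 and 0.571).

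**Figure D5:**
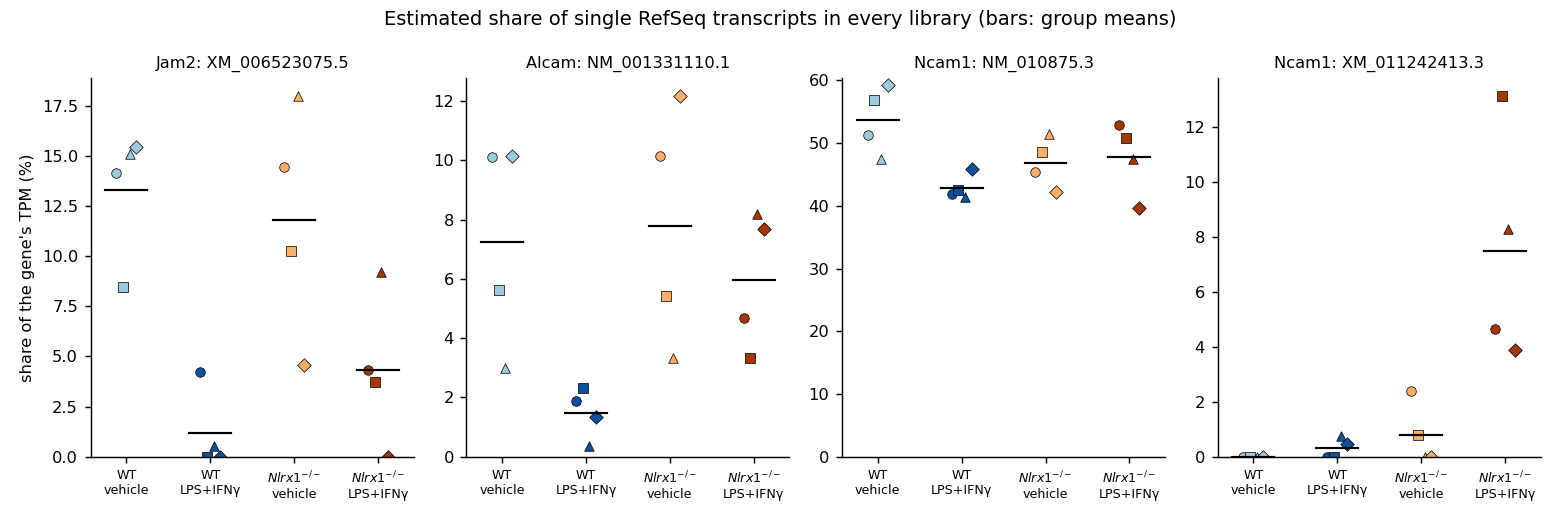
Share (%) of the gene's TPM estimated for 4 RefSeq transcripts in every library, with a bar at the mean of each group and marker shapes for litters as in the plot of levels by library. The shares of the Jam2 and Alcam transcripts come down in every WT litter, and the Ncam1 transcript XM_011242413.3 is at 3.88 to 13.1% in stimulated Nlrx1-/- libraries and at most 2.41% in the others.

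The genes most like Icam1, Vcam1 and Ncam1 across the 16 libraries were sought among 12600 genes with a mean of at least 1 log2 CPM. Libraries fall into vehicle and stimulated clusters, so Pearson's r mostly follows the treatment and is given as a description. Icam1 was closest to Erap1 (r = 0.999), Tap1 (0.997) and Psme2 (0.997), genes of antigen processing. Vcam1 was closest to Trim12c (0.992), Tspo (0.991) and Ifit3b (0.991), and Ncam1 to Hepacam (0.986), another immunoglobulin-type molecule of glia, Dlgap1 (0.981) and Rab11b (0.9801).

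Other immunoglobulin-type adhesion molecules moved in both directions. As a background to the counts of this list and those after it, 24.9% of all genes rose and 21.9% fell in WT, and 26.6% rose and 25.5% fell in Nlrx1-/-. Of 50 other neural ones tested, 6 rose and 28 fell in WT and 5 rose and 32 fell in Nlrx1-/-, with median responses of -0.38 and -0.58. Of 23 other leukocyte or junctional ones, 8 rose and 6 fell in WT and 8 rose and 7 fell in Nlrx1-/-, with medians of 0.10 and -0.03. Cd47, a signal that limits engulfment, rose by 1.56 ± 0.16 in WT and 1.89 ± 0.16 in Nlrx1-/-. Chl1, the close homologue of L1cam, rose by 1.23 ± 0.09 and 1.02 ± 0.09. Unc5b (0.87 in WT and 1.15 in Nlrx1-/-) and Kirrel (0.74 and 1.105) also rose, as did Igsf9b (0.59 in each) and Pvr (0.49 and 0.85).

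Among the falls, Cntn6, a contactin of neurons, had a response of -2.24 ± 0.20 in WT and -1.92 ± 0.20 in Nlrx1-/-. Dscaml1 (-1.37 and -1.89) and the neural GPI-anchored Opcml (-1.26 and -1.48) fell in both. So did Cdon (-1.52 and -1.298), Robo1 (-1.09 and -1.41), a Slit receptor, Mag (-0.88 and -1.84), of myelinating glia, and Igsf9 (-0.98 and -1.50). A gene with unlike values in the genotypes is not shown to respond differently by these values, since no gene passed that test in the main limma fit. DESeq2 called 362 genes in it.

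Between stimulated genotypes 4.40% of all genes were called higher and 4.41% lower in Nlrx1-/-. Of the 50 neural molecules 1 was called higher in Nlrx1-/- (Kirrel3, 0.67) and 8 lower, led by Cadm4 (-0.77), Mdga1 (-0.68), Cntn1 (-0.54) and Lsamp (-0.49). Of the 23 others, 4 were called higher, among them Cxadr (0.83), Pvr (0.52) and Cd276 (0.45), and 2 lower, of which Igsf11 (-1.26) was the larger. The 1471 genes called in this comparison became 1 in the 8 stimulated libraries alone and 1 without WT litter 2, 3 or 4, and 2 without Nlrx1-/- litter 2 or 4, 796 without Nlrx1-/- litter 1 and 3868 without Nlrx1-/- litter 3. In the 8 libraries alone each such call named here and in the partner, linker and regulator lists was lost, with adjusted p of 0.0699 to 0.107.

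Leukocyte counterparts of Icam1 and Alcam were near or at 0. Itgal, Itgam, Itgax and Itgb2 had no row in the table, with at most 26 reads in any library, and Cd6 had 0 reads. Of 12 partners with a row, 6 rose and 3 fell in WT and 6 rose and 2 fell in Nlrx1-/-. Itgb3 rose by 2.07 ± 0.28 in WT and by 1.303 ± 0.28 in Nlrx1-/-, and was 1.41 ± 0.37 lower in stimulated Nlrx1-/- than in stimulated WT astrocytes (adjusted p = 0.0377). Itga9, which also binds VCAM1, rose by 1.45 ± 0.14 in WT and by 1.88 ± 0.14 in Nlrx1-/-, and was 0.62 ± 0.18 higher in stimulated Nlrx1-/- astrocytes (adjusted p = 0.0466). Epha4 fell in both genotypes (-0.93 in WT and -0.79 in Nlrx1-/-). Cntnap1 fell in WT (-0.91), and its response in Nlrx1-/- was -0.56 (adjusted p = 0.0529, limma). Stimulated Nrp1 was 0.55 ± 0.16 lower in Nlrx1-/-.

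Of 21 linkers, polysialic acid enzymes and sheddases, 8 rose and 7 fell in WT and 7 rose and 6 fell in Nlrx1-/-. St8sia2, which adds polysialic acid to NCAM1, fell by 1.99 ± 0.18 in WT and by 2.09 ± 0.18 in Nlrx1-/-. Its paralogue St8sia4 was 0.98 ± 0.21 higher in stimulated Nlrx1-/- astrocytes (adjusted p = 0.0349). Of the ankyrin genes, Ank2 fell by 0.65 ± 0.07 in WT and by 0.54 ± 0.07 in Nlrx1-/-. Ank3 rose by 0.61 ± 0.09 in WT and by 0.93 ± 0.09 in Nlrx1-/-, and was 1.17 ± 0.27 higher in stimulated Nlrx1-/- astrocytes. Ezr, which links ICAM1 to actin, fell by 0.52 ± 0.05 in WT and by 0.64 ± 0.05 in Nlrx1-/-.

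Of 16 tested transcription factors and feedback genes known to act on Icam1 and Vcam1, 12 rose and 1 fell in WT and 14 rose in Nlrx1-/-, with medians of 1.02 and 1.33. Irf1 rose by 5.81 ± 0.08 in WT and by 5.60 ± 0.08 in Nlrx1-/-, beside 5.26 and 5.36 for Icam1. Nfkbia, the inhibitor of NF-κB that is itself its target, rose by 1.45 ± 0.18 in each genotype. Fos fell by 1.26 ± 0.23 in WT, and its response in Nlrx1-/- was -0.40 ± 0.23 (adjusted p = 0.161, limma). Junb rose by 1.35 ± 0.17 in WT and by 2.06 ± 0.17 in Nlrx1-/-, and Nfkb2 was 0.51 ± 0.15 higher in stimulated Nlrx1-/- than in WT astrocytes (adjusted p = 0.0497). Of 7 selectins and selectin ligands, 3 had a row, of which 2 fell in WT, 1 fell in Nlrx1-/- and none rose.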

How the data were processed

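RNA of 16 wells was sequenced as polyA-selected, non-stranded paired-end libraries, and the authors quantified them with Salmon 1.7.0 against the GRCm39 transcriptome. The deposited transcript files give an expected count and a TPM value per RefSeq transcript. The deposited gene table gives log2 CPM of TMM-scaled libraries, made by the authors with a small prior count, for genes that passed their expression filter. Responses were fitted with limma 3.58.1 (R 4.3.3, variance trend) on all 16707 rows, with terms for genotype, litter within genotype and treatment within genotype. Vehicle and stimulated wells of a replicate came from the same mice, and libraries of a litter correlated at r = 0.0733 to 0.355 in their deviations from group means, against a median of -0.0517 with other litters. That median is not independent of the values within litters, since deviations within a group sum to 0. Genotypes were compared within a treatment in a fit of the 4 groups with no litter term. Calls are at a Benjamini-Hochberg adjusted p below 0.05 over all rows. TPM was summed per gene over the 106430 of 129698 transcripts paired with a symbol, which held 96.7 to 97.3% of reads. Transcripts with a mean of at least 0.5 TPM were fitted as log2(TPM + 0.5). Alternatives used edgeR 4.0.16 and DESeq2 1.42.0 on rounded sums of expected counts. Fits were tested on simulated data.

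The members and gene lists were chosen with earlier results of these data known. Named besides the members were, per comparison, up to 5 called genes in each direction with the largest change from other immunoglobulin-type molecules, up to 4 from partners, linkers, selectins and regulators (mean of at least 1 log2 CPM), the 3 genes most correlated with Icam1, Vcam1 and Ncam1, and the highest and lowest gene of each marker list. Some genes that this rule names are not reported here. Intervals cover 95%.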

Additional observations from a re-analysis of the deposited data

Results flagged for a closer look

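Within each genotype and treatment, and for each response, the lowest and highest of 4 values was compared with its neighbour, in 48 groups of values over the 8 members. In all 3 values stood apart by Dixon's criterion on the gap divided by the range, and chance flags about 1 in 20 groups. The Icam1 response of WT litter 1 was 4.95, against 5.35 to 5.38 in the other WT litters. The Jam3 response of WT litter 3 was 0.67, against 0.74 to 0.75. The Nrcam response of Nlrx1-/- litter 4 was 0.34, against 0.62 to 0.66.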

How the results depend on the processing

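Of 625 recomputed member differences, 581 kept their direction and side of the threshold, 29 lost a call, 5 gained one and 10 changed sign. The calls for Icam1, Vcam1, Jam2, Jam3, Ncam1 and Nrcam in the responses held in all 15 alternatives of each genotype. With no replicate block, 4 members rose and 2 fell in each genotype (Alcam was lost), 5954 genes were called in WT and 6949 in Nlrx1-/-, and the difference of responses still gave 0. That difference gave 362 genes with DESeq2 and 0 to 822 with 1 litter left out. In vehicle, the 1 gene called became 0 with edgeR, with no variance trend, with a mean of at least 1 log2 CPM, at an adjusted p below 0.01 or in the 8 vehicle libraries alone, 765 with DESeq2, 591 with a replicate block across genotypes, and 0 to 1618 with 1 litter left out. DESeq2 called 1 member there, and leaving out 1 litter gave 0 to 1 (Vcam1, without Nlrx1-/- litter 3). After stimulation, the 2 members called lower became 0 with edgeR, with no trend, at 0.01 or in the 8 libraries alone, 1 with DESeq2 or log2(CPM + 1), and 0 to 3 with 1 litter left out, while the block across genotypes kept the count at 2. The 1471 genes became 807 with edgeR, 2497 with DESeq2, 2 with no trend, 1 at 0.01 or in the 8 libraries alone, 2815 with the block, and 1 to 3868 with 1 litter left out. The cause was not tested. The labels do not say what a replicate number shares across genotypes.

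With 1 litter left out, member transcripts called in the WT response numbered 4 to 7 lower. Those of the Nlrx1-/- response numbered 3 to 5 higher and 4 to 7 lower. Between genotypes they numbered 0 to 1 lower in vehicle, and 0 to 1 higher and 0 to 2 lower after stimulation, all gained without Nlrx1-/- litter 3. Sign changes were among uncalled values. The ranges with 1 litter left out were -0.63 to 0.16 for the Nlrx1-/- response of L1cam (above 0 without Nlrx1-/- litter 3), and for the difference of responses -0.00210 to 0.23 for Icam1 (below 0 without WT litter 1) and -0.17 to 0.0249 for Alcam (above 0 without Nlrx1-/- litter 4). In vehicle, Jam2 ran from -0.0240 to 0.0203, above 0 without WT litter 2 (0.0112) or 3 (0.0155) or Nlrx1-/- litter 1 or 4 (0.00577). After stimulation, Vcam1 ran from -0.25 to 0.0132 (without Nlrx1-/- litter 1), and L1cam from -0.32 (without WT litter 3) to 0.68, with -0.27 without Nlrx1-/- litter 1. L1cam rested on 4 to 71 reads per library and Icam2 on 0.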

Other observations

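Markers of further cell types were present at uneven levels. Mural markers (5 of 7 with a row) summed to 120 to 397 TPM, from Acta2 at a mean of 196 TPM to Abcc9 at 0.01. Neuronal markers (10 of 11) summed to 333 to 438 TPM, from Map2 at 315 to Slc17a6 at 0.04. Fibroblast markers (6 of 6) summed to 12.2 to 53.9 TPM, from Pdgfrl at 15.96 to Lum at 0.40, and ependymal markers (5 of 6) to 104 to 230 TPM, from Foxj1 at 105 to Dnah11 at 0.50. Their part in the levels of the adhesion molecules was not tested.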
